A study of Mus musculus with 42 samples.

Results

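The genes followed here in the mouse kidney are linked to pre-mRNA splicing or to RNA kept in the nucleus. They are Rnpc3, Pnisr, Ccnl2, Firre, Malat1, Neat1, Clk1, Clk4, Luc7l3 and Srsf5, 10 of 56691 genes in the deposited tables. The first 4 were chosen by their measured level, higher in EpSA kidneys over the day, so their diet differences are given as a description with no test. The other 6 were added as genes of the same kind, with earlier results of these data known. All 10 passed the filter on low values, a mean of at least 1 FPKM (fragments per kilobase of transcript, scaled to library size), which kept 13344 genes.

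Kidneys came from wild-type male C57BL/6 mice, 6 weeks old at the start, kept in 12 h of light and 12 h of dark. They ate standard chow, or a high-fat diet that contained 3% EpSA, for 14 weeks. EpSA stands for epoxystearic acid, which forms when frying oil is heated. Zeitgeber time (ZT) counts hours from lights on. The labels list 3 mice for each diet at ZT 1, 5, 9, 13, 17, 21 and 25. A high-fat group without EpSA was not analysed here, so the fat and the EpSA of the diet cannot be told apart. The deposited values are 14 means, 1 for each diet and time, called pools below. No spread between mice can therefore be given, and depth is unknown. The SE of a diet difference below comes from how that difference varied from time to time. The SE of a rhythm comes from what a fitted 24 h curve left over. Neither holds a spread between mice, and a p-value measures variation over times only. In whole tissue, fewer cells of a type and less RNA per cell cannot be told apart.

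Most introns are removed by the major spliceosome, and a small class by the minor one, which uses the U11 and U12 particles. Serine/arginine-rich (SR) proteins help the spliceosome choose sites, and kinases of the CLK family phosphorylate them and so release them from nuclear speckles. Many genes of this machinery make transcripts that keep an intron and stay in the nucleus, and long noncoding RNAs such as Malat1 and Neat1 work there. The present libraries are of whole tissue, so neither the place of an RNA in the cell nor intron reads were measured.

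The genes as a group stood above chow in EpSA by a median of 0.28 on the log2(FPKM + 1) scale, with single genes between 0.21 and 0.42. Over all 13344 tested genes the median was -0.01. For the 6 genes that were not picked the median was 0.26, and all 6 had a higher mean in EpSA. None of the 6 passed limma with Benjamini-Hochberg adjustment over all tested genes, with adjusted p between 0.057 and 0.25. In the same fit 0.172% of tested genes were called higher in EpSA (23 genes). These 23 include the 4 picked genes, from which nothing is read. An unadjusted p under 0.05 with a higher level in EpSA was held by all 6 of the others and by 8.56% of tested genes. The 6 were chosen with earlier results of these data known, so this share is a description only.

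By mean level in FPKM, which is per length, Malat1 came first, followed by Neat1, Srsf5, Ccnl2, Clk1, Pnisr, Luc7l3, Clk4, Firre and Rnpc3. The ranges over the 14 pools overlapped between Neat1 and Srsf5, and between each neighbouring pair from Clk1 to Firre, so those neighbours are not set apart by level. Malat1, Ccnl2 and Rnpc3 overlapped with no neighbour.

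**Figure D1:**
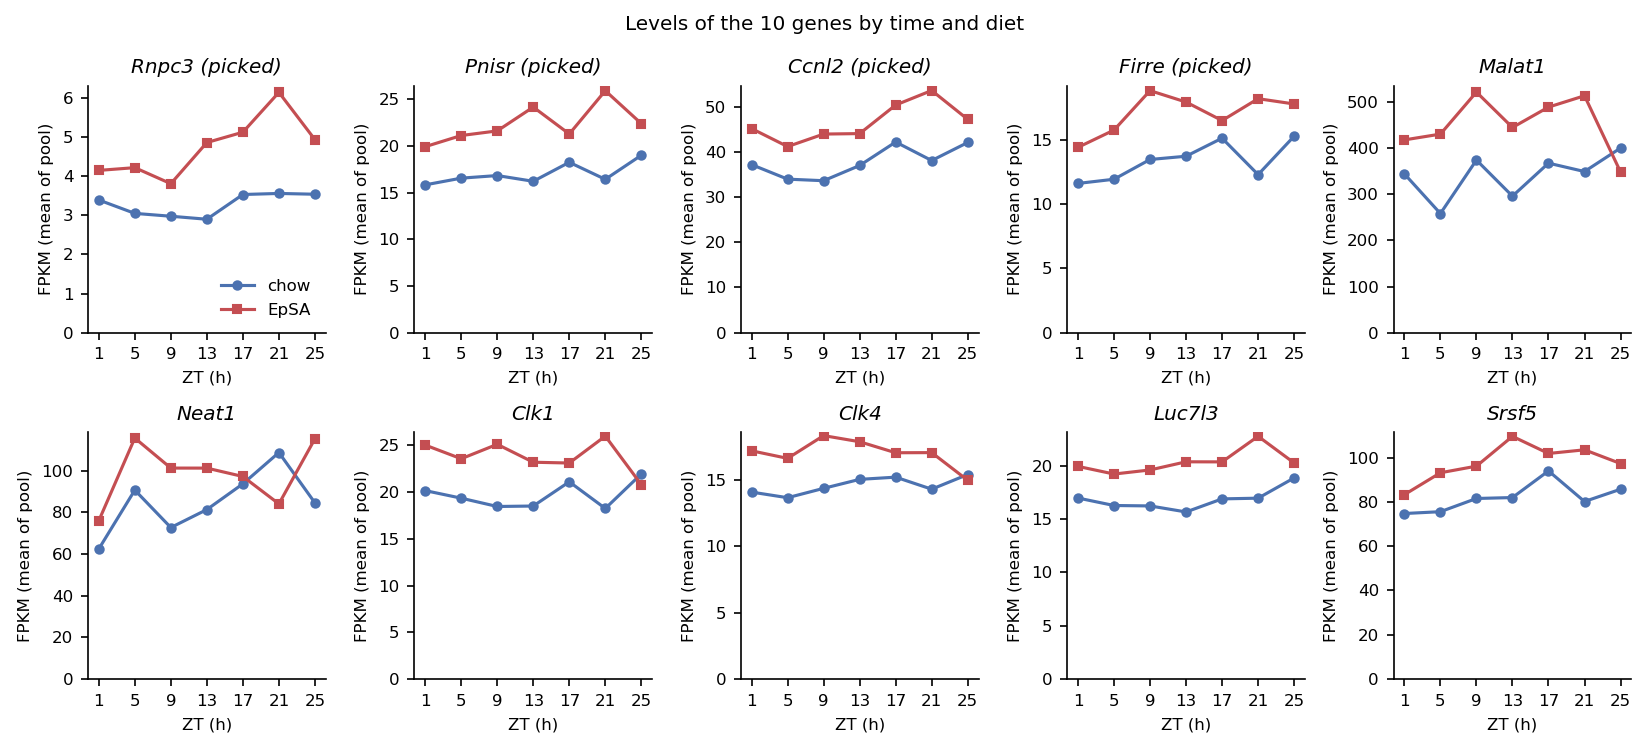
Level of each gene (FPKM, vertical axis from 0) against zeitgeber time (h) in chow (circles) and EpSA (squares), each point being the deposited mean of 1 pool. "Picked" marks the 4 genes chosen for their higher level in EpSA. The EpSA line lies above the chow line at all 7 times for 6 genes, and crosses it at ZT 25 for Malat1, Clk1 and Clk4 and at ZT 21 for Neat1.

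Promoter sequences are shown as a description, and the part of promoters in the levels of these genes was not tested. RefSeq promoters of GRCm38.p6, 300 bases each with 250 before the start site, were at hand for 7 of the 10 (Rnpc3, Ccnl2, Firre, Malat1, Clk4, Luc7l3 and Srsf5). Motifs were searched on both strands. TGACGT, the core of the cyclic AMP response element, was in 4 of the 7 and in 7.51% of all 32851 promoters in the table. It reads ACGTCA on the other strand. Those 4 are printed 5′ to 3′ on the strand of the gene, with the matches in capitals. No other motif searched overlapped a match, while the palindromic TGACGTCA of Clk4 holds 2 overlapping matches.

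Rnpc3: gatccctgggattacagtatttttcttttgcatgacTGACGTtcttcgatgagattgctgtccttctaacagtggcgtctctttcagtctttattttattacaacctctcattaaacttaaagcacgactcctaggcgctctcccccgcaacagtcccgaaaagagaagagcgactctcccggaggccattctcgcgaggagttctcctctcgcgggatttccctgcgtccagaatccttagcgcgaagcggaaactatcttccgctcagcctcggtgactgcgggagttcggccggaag

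Ccnl2: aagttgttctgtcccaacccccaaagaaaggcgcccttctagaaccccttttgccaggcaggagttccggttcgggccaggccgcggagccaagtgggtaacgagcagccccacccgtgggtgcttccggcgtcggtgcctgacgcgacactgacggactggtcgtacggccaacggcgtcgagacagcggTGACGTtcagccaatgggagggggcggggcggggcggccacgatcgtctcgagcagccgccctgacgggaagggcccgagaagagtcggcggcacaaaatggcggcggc

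Clk4: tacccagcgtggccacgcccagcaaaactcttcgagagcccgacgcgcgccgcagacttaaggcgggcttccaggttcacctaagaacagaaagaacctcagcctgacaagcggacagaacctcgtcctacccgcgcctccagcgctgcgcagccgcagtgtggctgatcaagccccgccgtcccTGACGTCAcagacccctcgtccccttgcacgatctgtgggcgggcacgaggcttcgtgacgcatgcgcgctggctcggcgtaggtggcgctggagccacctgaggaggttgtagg

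Malat1: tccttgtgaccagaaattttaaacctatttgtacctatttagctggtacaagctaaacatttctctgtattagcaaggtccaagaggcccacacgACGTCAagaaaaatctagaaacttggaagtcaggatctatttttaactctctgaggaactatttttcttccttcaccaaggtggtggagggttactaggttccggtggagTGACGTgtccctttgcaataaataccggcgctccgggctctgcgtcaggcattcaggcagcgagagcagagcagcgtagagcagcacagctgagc

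The windows are chr3:113630100-113630399 on the minus strand for Rnpc3, chr4:155812239-155812538 on the plus strand for Ccnl2, chr11:51262864-51263163 on the plus strand for Clk4, and chr19:5802623-5802922 on the minus strand for Malat1. The matches begin 214 bases before the start site in Rnpc3, 59 in Ccnl2, 65 in Clk4 and 155 and 45 in Malat1. GGGCGG, the GC box, was in 5 of the 7 (Ccnl2, Firre, Clk4, Luc7l3 and Srsf5) and in 35.7% of all promoters. These 5 promoters hold from 56.0% (Srsf5) to 68.7% (Luc7l3) G and C, against a median of 52.7% over all promoters. Rnpc3 holds 51.7% and Malat1 47.0%. The part of base makeup in the matches was not tested. GCCATNTT was in Ccnl2 and Luc7l3 and in 6.05% of all. CACGTG, the E-box that clock factors bind, was in Firre and in 7.15% of all. CCAAT was in Ccnl2 and in 37.4%, CCGGAAGT in Srsf5 and in 3.89%, and CTCGCGAG in Rnpc3 and in 0.919%. TATAAA, TTANGTAA and GAANNTTC were in none of the 7 and in 13.6%, 2.32% and 7.86% of all. A match is a description of the letters, and the motifs were chosen with the values of these genes known. The Clk4 gene of the GENCODE annotation begins further upstream, at position 51261730, so its window belongs to 1 of its start sites.

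Rnpc3 encodes the 65K protein of the U11/U12 particle, which binds the U12 RNA of the minor spliceosome. It is on GRCm38 chromosome 3 at 113605067-113630149, minus strand. In the 7 chow pools its level was lowest at ZT 13 (2.90 FPKM), with a median of 3.39 and a highest value of 3.56 at ZT 21. In the 7 EpSA pools it was lowest at ZT 9 (3.81 FPKM), with a median of 4.86 and a highest value of 6.15 at ZT 21. The diets did not overlap: each EpSA pool lay above each chow pool, though the gap was narrow (3.81 against 3.56 FPKM). The choice of Rnpc3 for a higher level in EpSA in part fixes this, and such separation held for 0.427% of all tested genes. The mean was 3.28 ± 0.292 FPKM in chow and 4.75 ± 0.782 in EpSA (SD over 7 times), or 44.9% higher. The difference was 0.42 ± 0.058 (SE) on the log2 scale, from 0.23 at ZT 1 to 0.65 at ZT 21. Rnpc3 shares 1128 exonic bases on the same strand with Amy1, a salivary amylase gene, and the counting rule for such bases is not given in the sources used here. Amy1 itself differed by 0.15 ± 0.11 (SE), adjusted p = 0.48 by limma.

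Next come 3 members that encode proteins rich in arginine and serine. Pnisr encodes a nuclear protein that binds pinin and lies on chromosome 4 at 21847583-21876475, plus strand. Its chow pools ran from 15.8 FPKM at ZT 1, with a median of 16.6, to 19.0 at ZT 25. Its EpSA pools ran from 19.9 FPKM at ZT 1, with a median of 21.6, to 25.9 at ZT 21. The lowest EpSA pool was thus above the highest chow pool, though by less than 1 FPKM, and the choice of Pnisr in part fixes this. The difference was 0.37 ± 0.057 (SE), from 0.21 at ZT 17 to 0.63 at ZT 21.

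Luc7l3, a relative of the yeast U1 particle protein Luc7, was not among the genes picked. It lies on chromosome 11 at 94287890-94321988, minus strand. Chow pools ran from 15.7 FPKM at ZT 13, with a median of 16.9, to 18.8 at ZT 25. EpSA pools ran from 19.2 FPKM at ZT 5, with a median of 20.2, to 22.7 at ZT 21. Here too the diets did not overlap, though the gap was narrow. Such separation held for 0.427% of all tested genes. The difference of 0.26 ± 0.044 (SE) was in the same direction at 7 of 7 times and did not pass limma with Benjamini-Hochberg adjustment (adjusted p = 0.057).

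Srsf5 encodes an SR splicing factor and lies on chromosome 12 at 80945504-80950507, plus strand. Its chow median was 81.5 FPKM, between 74.8 (ZT 1) and 94.0 (ZT 17). Its EpSA median was 97.3 FPKM, between 83.3 (ZT 1) and 109.6 (ZT 13). The ranges overlapped, since the chow pool of ZT 17 was above the EpSA pools of ZT 1 and 5, although EpSA was higher at each time. The difference was 0.25 ± 0.049 (SE), with adjusted p = 0.064 by limma. EpSA was above chow at all 7 times in 2 of the 6 genes not picked, Luc7l3 and Srsf5, and in 3.81% of all tested genes. The 4 picked genes were also higher at all 7 times, which their choice in part fixes.

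Clk1 and Clk4 encode closely related kinases that phosphorylate SR proteins, and how reads that match both were counted is not given in the sources used here. Clk1, on chromosome 1 at 58410189-58424066 (minus strand), ran from 18.3 to 21.9 FPKM in chow, with a median of 19.4. In EpSA it ran from 20.8 to 26.0 FPKM, with a median of 23.6. Clk4, on chromosome 11 at 51261730-51281766 (plus strand), ran from 13.7 to 15.4 FPKM in chow, with a median of 14.4. In EpSA it ran from 15.0 to 18.4 FPKM, with a median of 17.1. In both genes the last time stood apart: at ZT 25 chow had its highest pool and EpSA its lowest, and only there was EpSA below chow, by a log2 difference of -0.07 for Clk1 and -0.04 for Clk4. The difference over the day was 0.26 ± 0.065 (SE) for Clk1, adjusted p = 0.096 by limma. It was 0.21 ± 0.048 (SE) for Clk4, adjusted p = 0.085 by limma. Leaving out ZT 25 gave 0.32 and 0.25.

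Ccnl2 encodes cyclin L2, a partner of the kinase CDK11 that sits in nuclear speckles. It lies on chromosome 4 at 155812489-155824543, plus strand. Its chow pools ran from 33.7 FPKM at ZT 9 to 42.2 at ZT 17, with a median of 37.2. Its EpSA pools ran from 41.2 FPKM at ZT 5 to 53.6 at ZT 21, with a median of 45.2. The chow pools of ZT 17 and 25 were above the lowest EpSA pool, so the ranges overlapped, while EpSA was higher at each time. The difference was 0.29 ± 0.046 (SE), from 0.16 at ZT 25 to 0.48 at ZT 21.

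The last 3 members are long noncoding RNAs. Firre, transcribed from chromosome X at 50555744-50635321 (minus strand), is a nuclear RNA known for its part in the placement of chromosomes. It ran from 11.6 FPKM at ZT 1 to 15.3 at ZT 25 in chow, with a median of 13.5. In EpSA it ran from 14.4 FPKM at ZT 1 to 18.9 at ZT 9, with a median of 17.8. Chow at ZT 17 and 25 was above EpSA at ZT 1, so the ranges overlapped, while EpSA was higher at each time. The difference was 0.33 ± 0.053 (SE), from 0.12 at ZT 17 to 0.53 at ZT 21.

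Malat1, an abundant RNA of nuclear speckles on chromosome 19 at 5795690-5802672 (minus strand), had the highest level of the 10. Chow pools ran from 258 FPKM at ZT 5 to 401 at ZT 25, with a median of 349.7. EpSA pools ran from 349 FPKM at ZT 25 to 522 at ZT 9, with a median of 445. EpSA was higher at 6 of 7 times and lower at ZT 25, where chow had its highest and EpSA its lowest pool. The difference was 0.41 ± 0.10 (SE), close in size to that of Rnpc3 but with a larger error, and adjusted p = 0.095 by limma.

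Neat1, the RNA scaffold of paraspeckles, lies beside Malat1 on chromosome 19 at 5824708-5845478, minus strand. Chow pools ran from 62.4 FPKM at ZT 1 to 108.7 at ZT 21, with a median of 84.6. EpSA pools ran from 76.0 FPKM at ZT 1 to 115.7 at ZT 5, with a median of 101.2. The ranges overlapped over most of their length. The difference was 0.22 ± 0.095 (SE), adjusted p = 0.25 by limma. It was -0.37 at ZT 21, where the other 9 genes had differences from 0.24 to 0.65, and without ZT 21 it was 0.32.

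**Figure D2:**
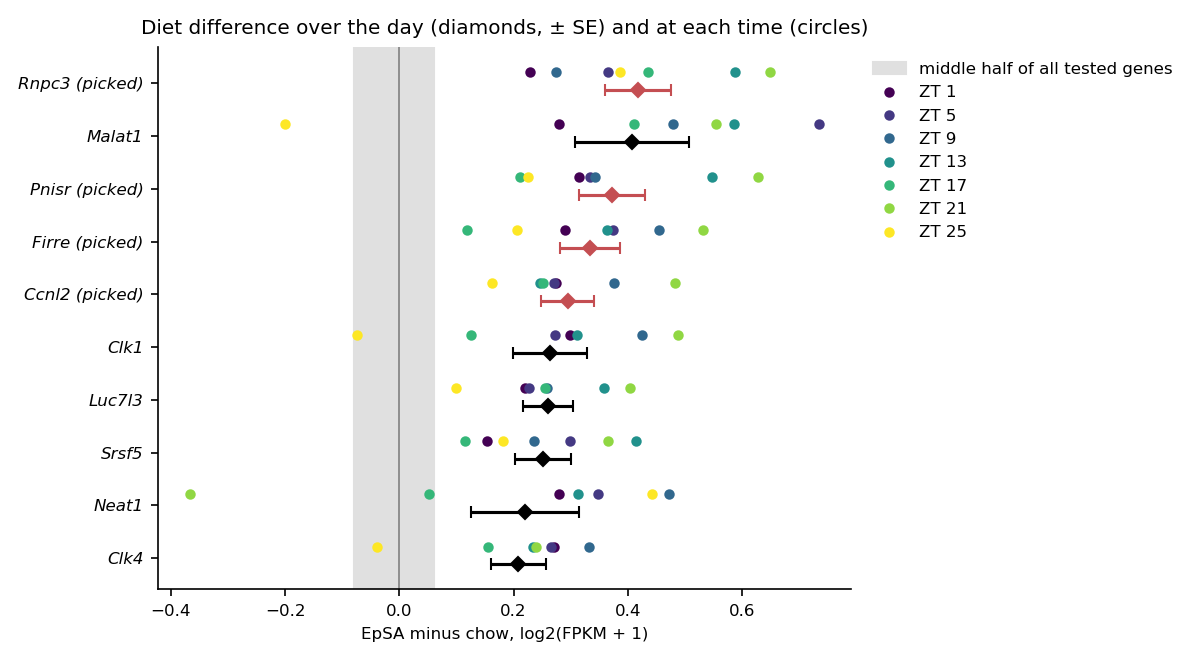
EpSA minus chow on the log2(FPKM + 1) scale for each gene, over the day (diamond, bar of 1 SE from limma) and at each of the 7 times (circles coloured by ZT); red diamonds are the 4 genes picked for this difference. The grey band spans the lower to the upper quartile of all tested genes, -0.08 to 0.06, and the 10 diamonds lie between 0.21 and 0.42.

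By time, the median difference of the 10 genes was largest at ZT 21 (0.48) and smallest at ZT 25 (0.17) and ZT 17 (0.18). At ZT 1, 5, 9 and 13 it was 0.28, 0.32, 0.36 and 0.36. The medians of all tested genes at those times lay between -0.05 and 0.07, the highest at ZT 21. All 10 genes were higher in EpSA at ZT 1, 5, 9, 13 and 17, 9 of 10 at ZT 21, and 7 of 10 at ZT 25. ZT 25 is the clock hour of ZT 1 a day later. In chow all 10 genes were higher at ZT 25 than at ZT 1, by a median of 0.19, against 39.1% of all tested genes. In EpSA 7 of 10 were higher at ZT 25, by a median of 0.11, against 48.9%, and Malat1, Clk1 and Clk4 had log2 differences of -0.26, -0.26 and -0.19. Each pool is 1 mean, so these steps have no test.

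A daily rhythm was asked of each gene with a 24 h cosine in limma, on values the choice of genes had not used in this way. None of the 10 passed in either diet after Benjamini-Hochberg adjustment. The fit called 0.0974% of tested genes in chow (13 genes) and 0.045% in EpSA (6 genes). Before adjustment, p was under 0.05 in EpSA for Rnpc3 and Ccnl2, and for 8.63% of all tested genes. Rnpc3 had an amplitude of 0.23 ± 0.064 (SE) on the log2 scale with a peak at 19.2 h, unadjusted p = 0.023 and adjusted p = 0.54 in limma. Ccnl2 had an amplitude of 0.16 ± 0.046 (SE) with a peak at 19.4 h, unadjusted p = 0.024 and adjusted p = 0.54 in limma. In the authors' deposited table, the meta2d p was 0.045 for Ccnl2 in EpSA and 0.024 for Luc7l3 in chow, with q of 1.0 and 0.76. In the authors' deposited table a meta2d p under 0.05 was held by 11.8% of tested genes in chow and 9.82% in EpSA. No gene was called for a difference of rhythm between the diets in limma (0.0% of tested genes), while 585 had an unadjusted p under 0.05. Among the 10 the lowest unadjusted p of that difference was 0.21, for Rnpc3.

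The 10 genes varied together across the 14 pools. All 45 pairwise correlations of log2 levels were above 0, with a median of 0.78 and a range from 0.16 to 0.94. The genes were read in the same libraries and 7 pools share each diet, so the values are a description. With the mean of each diet and of each time removed, 35 of the 45 stayed above 0, with a median of 0.59. What is left then is the EpSA minus chow difference at each of the 7 times, so these correlations rest on 7 values. They were not computed for other genes. Within the 7 chow pools the median was 0.57, and within the 7 EpSA pools 0.30. Neat1 stood apart, with a median correlation of 0.32 with the other genes over 14 pools and -0.36 within EpSA. Clk1 and Clk4, which are near relatives, had a correlation of 0.88 over 14 pools and 0.89 with diet and time means removed.

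The mean standardised level of the 10 genes, in SD units, was below 0 in all 7 chow pools and above 0 in all 7 EpSA pools, which the choice of genes in part fixes. Within chow it was highest at ZT 25 (-0.10) and ZT 17 (-0.18) and lowest at ZT 5 (-1.19). Within EpSA it was highest at ZT 21 (1.32) and lowest at ZT 1 (0.23). Outside the 10, the named genes most like this profile over the 14 pools were Pnn (correlation 0.96), which encodes pinin, Ogt (0.96), the O-GlcNAc transferase, Tubgcp3 (0.96), a gamma-tubulin complex gene, Zfp950 (0.95) and Thoc1 (0.95), a subunit of the THO complex for mRNA export. A correlation of at least 0.9 was held by 26 tested genes and one of at least 0.8 by 164. The profile sets the diets apart, so a gene that differs by diet in the same direction is in part bound to be like it. Likeness within a single diet was not computed, so these correlations are a description only.

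RNA of the mitochondrial genome moved with the 10 genes. All 15 listed mitochondrially encoded genes had a higher mean in EpSA, 1 of them called (mt-Rnr2), with a median difference of 0.23. Their summed level was 94089 to 113460 FPKM in chow and 110543 to 132464 FPKM in EpSA. The sum had a correlation with the profile of the 10 genes of 0.92 over 14 pools, 0.81 within the 7 chow pools and 0.81 within the 7 EpSA pools. The chow pools with the highest mitochondrial sums were those of ZT 17 and 25, where the 10 genes were also highest. The part of mitochondrial RNA in the diet difference was not tested.

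**Figure D3:**
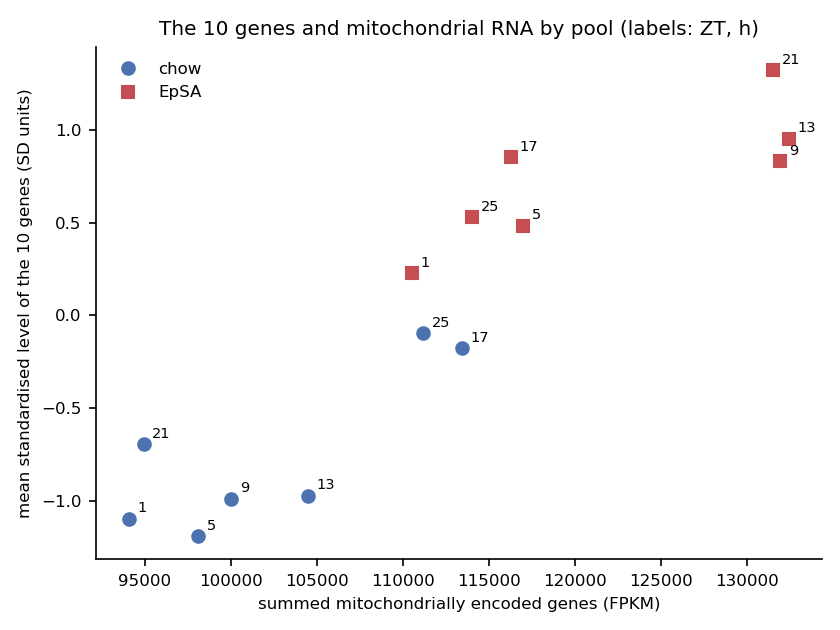
Mean standardised level of the 10 genes (SD units, vertical) against the summed level of 15 mitochondrially encoded genes (FPKM, horizontal), 1 point per pool labelled with its zeitgeber time (h), chow as circles and EpSA as squares. Both measures are lowest in the chow pools of ZT 1, 5, 9, 13 and 21, and the EpSA pools of ZT 9, 13 and 21, with the highest mitochondrial sums, stand at 0.83, 0.95 and 1.32 SD units.

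Markers of kidney cell types were read from the same pools. Proximal tubule markers, led by Kap, summed to between 34838 and 68153 FPKM in all pools, as the tissue label says, with 7 of 12 higher in EpSA. All 8 podocyte markers had a higher mean in EpSA, by a median of 0.19, with sums of 62.1 to 92.7 FPKM in chow and 75 to 100.2 in EpSA. All 10 tested immune cell markers had a lower mean, by a median of -0.32. Sums over all 18 listed were 81.0 to 197.7 FPKM in chow and 74.8 to 106.6 in EpSA. This was not steady over the day: the sum was higher in EpSA at ZT 17 (99.1 against 81.0 FPKM) and ZT 21 (89.8 against 86.0). It was lower in EpSA at the other times, with the highest chow sum at ZT 1. All 7 red blood cell markers were lower, by a median of -0.32, with sums of 383 to 710.5 FPKM in chow and 313 to 437 in EpSA. Endothelial markers were higher in 5 of 9 (median 0.03), thick limb and distal markers in 2 of 8 (median -0.09) and collecting duct markers in 2 of 8 (median -0.01). None of these marker genes was called, and none of these sums was at 0. Among genes listed as replication histones 1 of 6 was higher, with a median of -0.24, and 1 was called lower, Hist1h1c at -0.50. As a class their mRNAs mostly end without a poly(A) tail, but tails were not measured, so this need not hold for each gene. The adrenal marker sum was 108.5 FPKM in the EpSA pool of ZT 9 and at most 1.78 FPKM elsewhere, and without ZT 9 the differences of the 10 genes lay between 0.18 for Neat1 and 0.44 for Rnpc3. The part of cell makeup in the diet differences was not tested.

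Genes of related lists were counted by the sign of their difference, with the 10 genes left out. Among proteins of the LUC7 family and others rich in arginine and serine, 28 of 29 had a higher mean in EpSA, with a median of 0.12. Of these only Pnn was called, at 0.28 ± 0.043 (SE), while Srrm2 stood at 0.27, Luc7l2 at 0.27 and Srek1 at 0.24. Among SR proteins and their near relatives 10 of 11 were higher, with a median of 0.15 and none called. Srsf11 stood at 0.34 ± 0.057 (SE), Tra2a at 0.27, Srsf2 at 0.23 and Srsf4 at 0.16. Srsf9 was the 1 with a lower mean, at -0.13.

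Of the SR kinases and phosphatases 8 of 13 were higher, with a median of 0.07 and none called. Prpf4b stood at 0.27, Clk3 at 0.21, Clk2 at 0.16 and Dyrk1b at -0.12. Of the other cyclins of transcription 3 of 4 were higher, among them Ccnl1, the close relative of Ccnl2, at 0.34 ± 0.060 (SE), Ccnt2 at 0.25, Ccnt1 at 0.07 and Ccnk at -0.06. The 2 lists of spliceosome particle proteins had medians below 0. Other proteins of the minor spliceosome, the particle of Rnpc3, were higher in 5 of 12 with a median of -0.02. Snrnp48 stood at 0.25, Zrsr1 at 0.16, Snrnp25 at -0.15 and Cript at -0.07. Core snRNP proteins were higher in 7 of 28 with a median of -0.04. Sf3b5 stood at -0.27, Sf3b1 at 0.20, Snrpe at -0.17 and Snrpb at -0.16. No gene of these 2 lists was called.

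The hnRNP proteins, which also bind new transcripts, were higher in 16 of 24 with a median of 0.04 and none called, with Hnrnph1 at 0.30, Hnrnph3 at 0.14, Hnrnpu at 0.14 and Hnrnpa3 at 0.13. Paraspeckle proteins, the partners of Neat1, were higher in 12 of 15 with a median of 0.09 and none called. Sfpq stood at 0.20 and Cpsf6, Cpsf7 and Tardbp at 0.19, 0.19 and 0.15. Other nuclear long noncoding RNAs were higher in 9 of 10, but with a median of 0.03. Snhg11 stood at 0.23, Ftx at 0.22, Tug1 at 0.09 and Dleu2 at 0.07, with none called.

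Other mRNAs listed either as keeping introns or as held in the nucleus, a mixed list, were higher in 16 of 18, with a median of 0.14 and none called. Beside Ccnl1 and Tra2a these were led by Rbm3, a cold-inducible RNA-binding protein, at 0.32, and Ogt at 0.31. Cold-inducible and heat shock genes were higher in 12 of 17 with a median of 0.10, with Rbm3 at 0.32, Cryab at -0.26, Hsp90aa1 at 0.20 and Cirbp at -0.19. Of the genes listed under nuclear RNA export 11 of 16 were higher, with a median of 0.04. The list is mixed, since some of its genes, Zfc3h1 among them, act in other steps of nuclear RNA handling. Xpo1, the exportin, was the 1 called, at 0.27 ± 0.041 (SE), while Zfc3h1 stood at 0.33, Pabpn1 at 0.23 and Nxf1 at 0.20. Genes of nonsense-mediated decay were higher in 6 of 15 with a median of -0.02. Smg1 stood at 0.16, Rbm8a at -0.11, Smg9 at -0.09 and Magohb at -0.08, with none called. All tested genes were higher in 6147 of 13344.

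**Figure D4:**
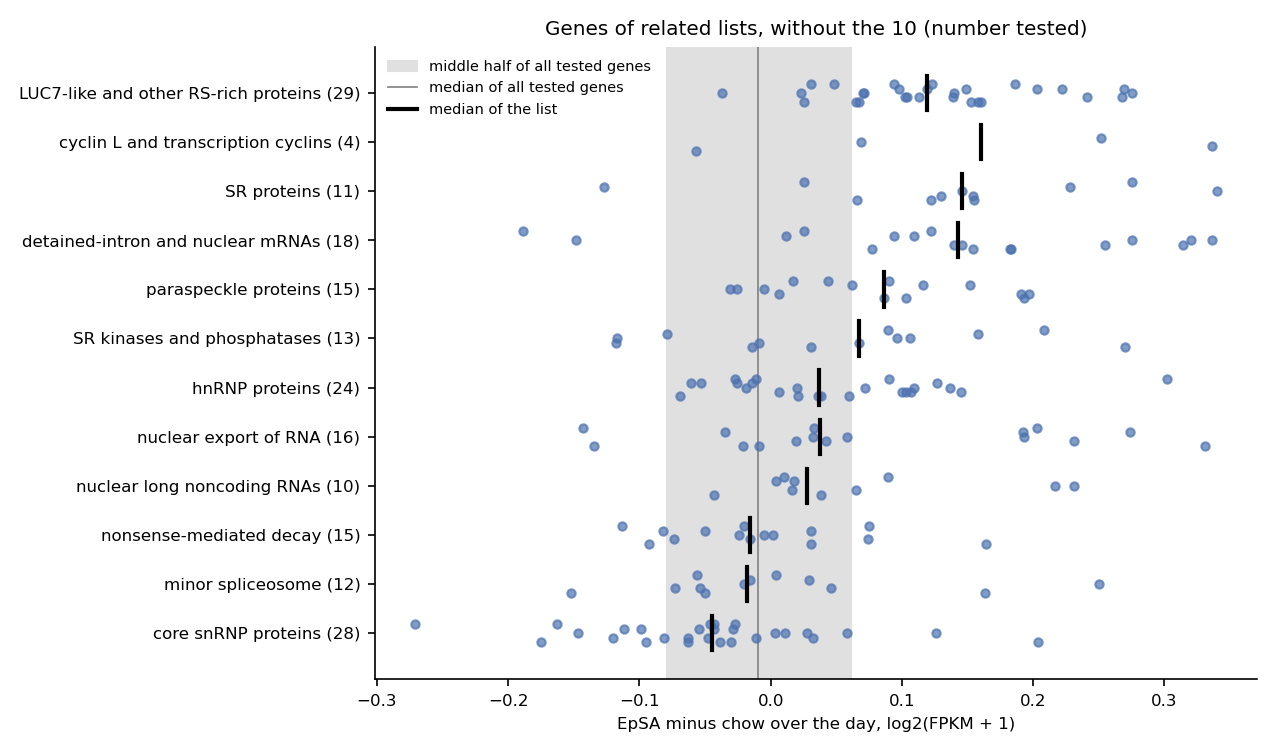
EpSA minus chow over the day on the log2(FPKM + 1) scale for each tested gene of 12 lists (circles) without the 10 genes, with the median of each list (black bar) and the number tested in brackets. The grey band spans the quartiles of all tested genes, -0.08 to 0.06; medians run from -0.04 for core snRNP proteins to 0.16 for the transcription cyclins.

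Among the 23 genes called higher, the picked ones lay in the middle of the order of size. Rnpc3 at 0.42 stood between Gm11766 at 0.46 and 4930442L01Rik at 0.42, and Pnisr at 0.37 between 4930442L01Rik and Gria3 at 0.35. Firre at 0.33 stood between Gm32391 at 0.34 and E130102H24Rik at 0.32, and Ccnl2 at 0.29 between E130102H24Rik and 2700097O09Rik at 0.29. By adjusted p in limma, 4930442L01Rik was the last gene inside the threshold at 0.048 and Stx16 the first outside at 0.050. Among the 10 genes here, Luc7l3 was the first outside.

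In the GENCODE annotation of GRCm38, Clk1 has 7 retained-intron transcripts of 13 and Clk4 has 7 of 14. Both stand at the 98.1 percentile of tested protein-coding genes in that number, ties being given their middle rank. Ccnl2 has 3 of 5, Srsf5 3 of 12, Luc7l3 2 of 10, Rnpc3 1 of 8 and Pnisr 0 of 13. Over all tested protein-coding genes without the 10, the median difference was -0.03 with no such transcript, -0.02 with 1, -0.01 with 2 to 3, 0.01 with 4 to 5 and 0.02 with 6 or more. Exonic length moved with the difference in the same way. In 5 classes of equal size by length, the shortest up to 2404 bases and the longest from 7417 bases, the medians were -0.07, -0.04, -0.01, 0.001 and 0.02. The 10 genes have exonic lengths from 3988 bases (Srsf5) to 20771 bases (Neat1). By length the protein-coding ones would fall in the upper 3 classes. Firre, Malat1 and Neat1 are noncoding and so belong to none of these classes of protein-coding genes. The part of length in the differences of the 10 genes was not tested.

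**Figure D5:**
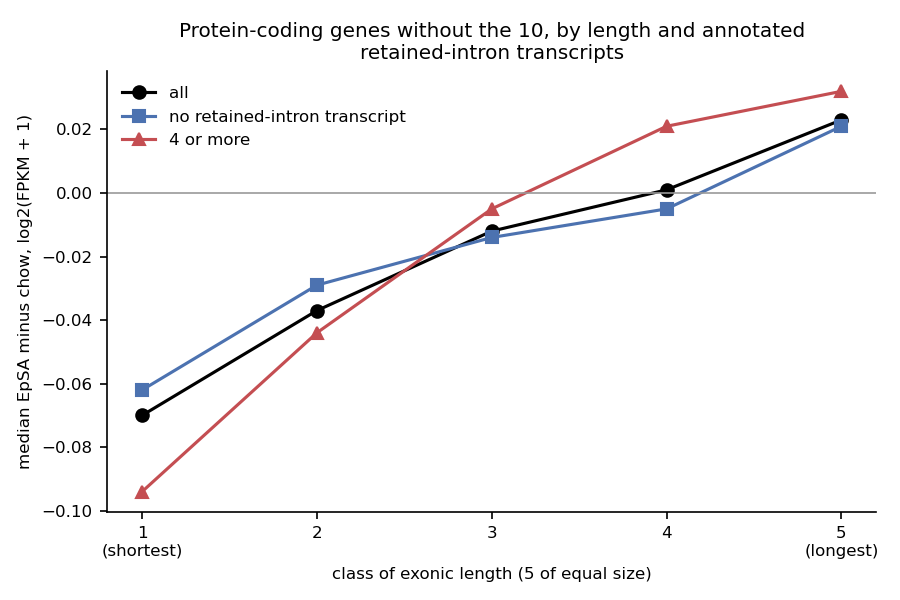
Median EpSA minus chow on the log2(FPKM + 1) scale (vertical) by class of exonic length (horizontal, 5 classes of equal size, shortest to longest) for tested protein-coding genes without the 10: all genes (circles), those with no annotated retained-intron transcript (squares) and those with 4 or more (triangles). All lines rise with length, from -0.07 to 0.02 for all genes, and the squares and triangles lie within 0.04 of each other in each class.

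The calls rest on all 7 times together. With any 1 time left out, limma called between 0 and 8 genes over the whole table and none of the 10, while each difference kept its direction. With the columns rescaled to the same sum 2 genes and none of the 10 were called, and with neither a trend on level nor robust moderation of the spread 3 genes and none of the 10. Other settings called more: of the 6 genes not picked, limma's adjusted p for Luc7l3 was 0.042 with a mean of at least 5 FPKM and 0.049 with quantile normalization. With time as a cosine and sine in place of a factor, Luc7l3, Srsf5, Clk1 and Clk4 passed, with adjusted p from 0.016 to 0.032 in limma, among 293 genes called in all. The median of the 10 was 0.27 with the columns rescaled. Single genes moved in size over the alternatives, such as Malat1 from 0.35 to 0.51 and Neat1 from 0.18 to 0.32.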

How the data were processed

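Per the labels' protocols, total RNA from 42 kidneys was read from both ends (150 bases). Aligner, counter, build and normalization are not given in the sources used here. There are 2 deposited tables, chow and EpSA, with 7 columns each. Their unit is taken as FPKM, which the headers do not name: the deposited values are not whole, and all end in 0, 3 or 7, as means of 3 values do. The rhythm statistics by the authors (deposited p-values, q-values) come from meta2d, ARS, JTK and LS, per the file headers, with periods and phases in hours, other amplitudes, and a ratio of amplitude to baseline by the authors.

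The 14 means were each taken as 1 sample, although the design had assumed libraries. The 13344 genes whose mean reached 1 FPKM were tested as log2(FPKM + 1), which understates changes of low genes, with limma 3.58.1 in R 4.3.3, moderated with a trend on level and robustly, the setting under which the 4 genes had been picked. Time was a factor (6 residual degrees of freedom). Rhythm was a 24 h cosine and sine (4), and its difference their interaction with diet (8). The Benjamini-Hochberg adjustment ran over all tested genes, with a threshold of 0.05. The models were tested on simulated data. Python 3.11.15, numpy 2.4.6, pandas 2.3.3 and matplotlib 3.10.9 served for other steps.

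Members, lists and motifs were chosen with earlier results of these data known. The text names the 10 genes, up to 4 further genes per list with the largest difference, the 5 named genes most like the profile, and the neighbours of the picked genes; Srsf9 was added after its value was seen. Alternatives covered pseudocount, filter, scaling, rhythm statistic, moderation and single times left out.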

Additional observations from a re-analysis of the deposited data

Results flagged for a closer look

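Of 30 sets of 7 values looked at (each gene in chow, in EpSA and as a difference), 2 held a value whose gap to its nearest neighbour was large for the range of the set, both of Luc7l3; chance alone marks about 1 set in 20. In chow the level at ZT 25 was 18.8 FPKM, with the next highest at 17.0. In EpSA the level at ZT 21 was 22.7 FPKM, with the next highest at 20.4. No mouse values stand behind either mean, so the spread at those times is unknown.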

How the results depend on the processing

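The differences of all 10 genes kept their sign under every alternative run. The number of genes called did not hold: it was 33 as reported, 0 with no filter on low values, 55 with a mean of at least 5 FPKM, 17 with the medians of all genes set equal, 70 with quantile normalization, 2 with columns rescaled to the same sum, 293 with time as a cosine and sine, and 3 with neither trend nor robust moderation. Leaving out 1 time gave 0 to 8. The 4 of the 10 genes called as reported were the picked ones, chosen under this same setting, so nothing is read from their calls. None of the 10 was called with no filter, with columns rescaled, without trend and robust moderation, or with any time left out. As reported and with medians equal, none of the 6 others was called. Luc7l3 was called at 5 FPKM, where Rnpc3 fell below the filter, and with quantile normalization. Luc7l3, Srsf5, Clk1 and Clk4 were called with time as a cosine and sine. The cause of these changes in the calls was not tested, but a cosine leaves more residual degrees of freedom and leaving out a time fewer. For rhythm in chow the 13 genes became 8 with a pseudocount of 0.1, 0 with no filter, 7 at 5 FPKM, 6 with medians equal and 8 with quantile normalization, and 0 by the q-values of meta2d, JTK, ARS and LS. In EpSA the 6 became 0 with no filter, 3 by meta2d and 0 by JTK, ARS and LS. With 1 time left out there were 0 to 3 in chow and 0 to 5 in EpSA. Exact two-sided sign-flip tests of the 7 time differences gave unadjusted p = 0.0156 for Luc7l3 and Srsf5, the smallest they can give, 0.0312 for Malat1, Clk1 and Clk4, and 0.125 for Neat1. No paired analysis was possible because the columns are means that carry no replicate number, so mice could not be matched; the diets were matched by time in the fit and the sign flips. The moderation alternatives were chosen after seeing the data. Depth is unknown, so it cannot be said what it limits.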
